A study of Arabidopsis thaliana with 2 samples.

Results

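The histone genes described here are 44 loci of Arabidopsis thaliana that encode the core histones H3, H4, H2A and H2B, their variants, and the linker histone H1. They were chosen by locus identifier, and all 44 have a value among the 33557 genes with values in the table. Mature ovules were dissected by hand from 2 genotypes and their RNA sequenced, with 1 library for each. The first is myb98, a mutant of MYB98, which encodes a transcription factor active in the synergids, the cells beside the egg cell that attract pollen tubes. The second is labelled wild-type and was made from unpollinated ovules of ms1, a male-sterile line. It may thus differ from myb98 by that mutation as well, since the other sample is labelled myb98 alone. Both labels carry 1 protocol, worded for wild-type plants: flowers emasculated at floral stage 12, ovules from about 50 pistils pooled 36 hours later, and plants grown in 16 hours of light and 8 hours of dark. Neither the myb98 allele nor the accession background is given in the sources used here.

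Levels are FPKM, the fragments of a gene divided by the length of its transcript and by the fragments mapped in the library, as the authors deposited them. The depth, estimated from the lowest values of long genes, was about 41950000 fragments in the myb98 library and 46810000 in the wild-type library. With a single library of each genotype, a difference carries no replicate check, standard error or p-value, and the genotype cannot be told apart from any other difference between the 2 libraries. MYB98 itself stood at 0.474 FPKM in myb98 ovules, against 1.35 FPKM in wild-type ovules, and its known downstream attractant gene LURE1.2 was listed at 0 in myb98 ovules, against 191 FPKM in wild-type ovules. Both directions go with the labels. The 6 markers of ovule identity and integuments were all expressed, among them STK, an ovule identity gene, at 123 FPKM in myb98 and 106 FPKM in wild-type ovules. The 6 pollen markers summed to 1.53 FPKM in myb98 and 1.73 FPKM in wild-type ovules, and 1 of them was expressed. Of these, the sperm-specific histone gene HTR10 was listed at 0 in myb98 and stood at 0.0355 FPKM in wild-type ovules.

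Histones package DNA into nucleosomes. Replication-coupled histones, which in plants include H3.1 and the bulk of H4, H2A and H2B, are made mainly in S phase and laid down behind the replication fork, so their transcripts are high where cells divide or endoreduplicate. Replacement variants are laid down outside replication as well: H3.3 at transcribed genes by the HIRA chaperone, H2A.Z near gene starts by the SWR1 complex, and CENH3 at centromeres. H2A.X marks DNA breaks when phosphorylated, H2A.W lies in heterochromatin, and H1 binds the DNA between nucleosomes. Of the 44 loci, 27 were classed as replication-coupled (5 H3.1, 8 H4, 4 H2A and 10 H2B genes) and 8 as replacement (3 H3.3, 4 H2A.Z and CENH3). The other 9 were 2 H2A.X, 3 H2A.W and 3 H1 genes and HTB8, the seed histone H2B.S.

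The 5 H3.1 genes encode 1 identical protein of 136 residues, and so do the 3 H3.3 genes, as translated from the RefSeq coding sequences of TAIR10.1. The coding sequences nevertheless differ, at 80.3% to 89.5% identity among the H3.1 genes, which lets reads be told apart. The H3.1 and H3.3 proteins differ at 4 residues, 31, 41, 87 and 90, counted after the start codon. The stretches that hold them are shown for HTR13 (H3.1, chromosome 5, minus strand, 3268847 to 3269594) and HTR5 (H3.3, chromosome 4, minus strand, 18557149 to 18558945), the H3 genes with the highest and the lowest ratio between the libraries. Capitals mark the codons of the 4 differing residues in codons 28 to 45 and then 84 to 93.
HTR13 codons 28 to 45: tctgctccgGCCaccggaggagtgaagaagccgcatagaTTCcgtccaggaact
HTR5 codons 28 to 45: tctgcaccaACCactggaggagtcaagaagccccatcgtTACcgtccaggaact
HTR13 codons 84 to 93: tttcagagcAGTgctgttGCTgctttacaa
HTR5 codons 84 to 93: ttccagagcCATgctgtgCTTgcactccag

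The histone genes were higher in the myb98 library as a group, and the replication-coupled genes by more than most replacement genes. The 44 genes summed to 6167 FPKM in myb98 ovules and 2889 FPKM in wild-type ovules, a ratio of 2.13, and made up 2.28% and 1.03% of all FPKM in those libraries. These shares also depend on the most abundant transcripts. The highest single value was 10750 of 270904 FPKM in the myb98 library and 41740 of 279844 FPKM in the wild-type library. A gene was called higher when log2((myb98 FPKM + 1)/(wild-type FPKM + 1)) was 1 or more, with at least 1 FPKM in either library. By that rule 30 of the 42 expressed members were higher, 0 were lower and 12 passed in neither direction. The same rule called 2.95% of all 16303 expressed genes higher and 2.74% lower. The median log2 ratio was 1.18 over the expressed members and -0.00 over all expressed genes, whose quartiles were -0.28 and 0.29. Of the 42, 40 had a log2 ratio above 0, against 49.6% of all expressed genes, and the same 40 lay above that upper quartile. The 2 below were the linker histone gene H1.3 and the H2A.W gene HTA12.

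The ratio between the libraries also ran with transcript length, and histone transcripts are short, from 522 to 1666 nt. Over all expressed genes of those lengths the median log2 ratio was 0.14, and 4.31% were called higher. Among those that also averaged 20 FPKM or more, the median was 0.28 and 7.23% were called higher. When each gene was set against the median of the 500 expressed genes nearest in transcript length, 13 members were at 1 or more, against 1.68% of all genes, and the median of the members was 0.88. Fewer than the 30 members thus reached the size rule on the length-centred scale.

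**Figure D1:**
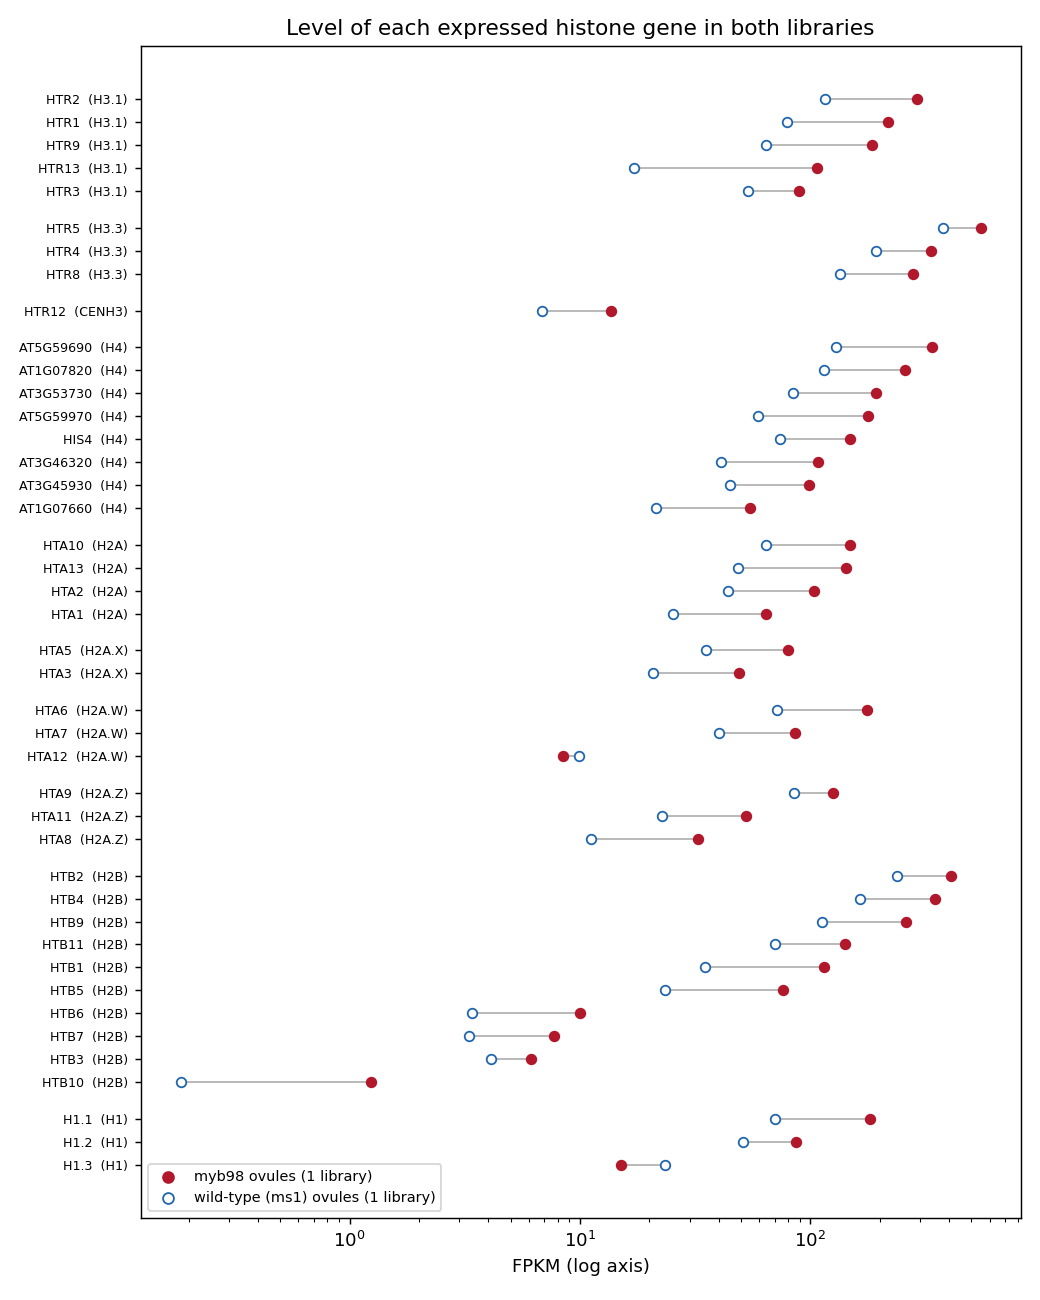
FPKM on a log axis of the 42 expressed histone genes, grouped by variant, in the myb98 library (filled) and the wild-type (ms1) library (open), with a line joining the values of each gene. The filled point lies to the right for 40 genes and to the left for HTA12 and H1.3.

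Among the H3 genes, those for replication-coupled H3.1 were higher in myb98 ovules by more than those for H3.3. The 5 H3.1 genes summed to 889 FPKM in myb98 ovules and 329.7 FPKM in wild-type ovules, a ratio of 2.70. The 3 H3.3 genes summed to 1162 FPKM in myb98 ovules and 707 FPKM in wild-type ovules, a ratio of 1.64. H3.1 transcripts therefore made up 43.3% of H3.1 plus H3.3 in the myb98 library and 31.8% in the wild-type library. H3.3 remained the larger pool in both.

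HTR13 (AT5G10390) had the highest log2 ratio of all members and was the only one past a log2 ratio of 2, a rule that called 0.282% of all expressed genes. It stood at 107 FPKM in myb98 ovules, against 17.2 FPKM in wild-type ovules, which is 6.23-fold and a log2 ratio of 2.57 (2.17 on the length-centred scale). None of the 50-nt windows of its transcript occurs in another annotated transcript. The longest transcript of HTR13, 3268847 to 3269550, is shorter than the annotated gene. It lies 621 nt from the transcript of another H3.1 gene on the same strand, HTR9 (AT5G10400, chromosome 5, 3270172 to 3270957). HTR9 stood at 185 FPKM in myb98 ovules and 64.1 FPKM in wild-type ovules, 2.89-fold, so the neighbours did not share the size of the ratio. HTR13 was the lowest H3.1 gene of wild-type ovules, while in myb98 ovules HTR3 was lower.

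The remaining H3.1 genes ran from 1.66-fold to 2.75-fold. HTR1 (AT5G65360) had 217 FPKM in myb98 ovules and 78.9 FPKM in wild-type ovules, 2.75-fold. HTR2 (AT1G09200), the highest H3.1 gene in both libraries, had 290.3 FPKM in myb98 ovules and 116 FPKM in wild-type ovules, 2.51-fold. HTR3 (AT3G27360) was the H3.1 gene that did not pass the rule, with 89.2 FPKM in myb98 ovules and 53.6 FPKM in wild-type ovules, 1.66-fold. Its exons overlap those of AT3G27380 on the same strand, and 35.6% of its 50-nt windows are shared, so its value is uncertain.

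Of the H3.3 genes, HTR5 and HTR4 were the most abundant H3 transcripts of both libraries, and HTR8 lay below the H3.1 gene HTR2 in myb98 and above it in wild-type ovules. HTR5 (AT4G40040) was the highest histone gene of both libraries, with 548 FPKM in myb98 ovules and 378 FPKM in wild-type ovules, 1.45-fold. HTR4 (AT4G40030), whose longest transcript lies 244 nt from that of HTR5, had 334 FPKM in myb98 ovules and 194 FPKM in wild-type ovules, 1.72-fold. HTR8 (AT5G10980) had 280.4 FPKM in myb98 ovules and 135 FPKM in wild-type ovules, 2.08-fold, and was the H3.3 gene past the rule. The ratios of H3.3 and H3.1 genes overlapped only through HTR3. The centromeric variant CENH3, encoded by HTR12 (AT1G01370), was far lower in level, with 13.7 FPKM in myb98 ovules and 6.83 FPKM in wild-type ovules. Its ratio of 2.00 (log2 ratio 0.91 with the pseudocount) lay above those of HTR4 and HTR5, and its share of all H3 transcripts was 0.664% in myb98 and 0.655% in wild-type ovules.

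**Figure D2:**
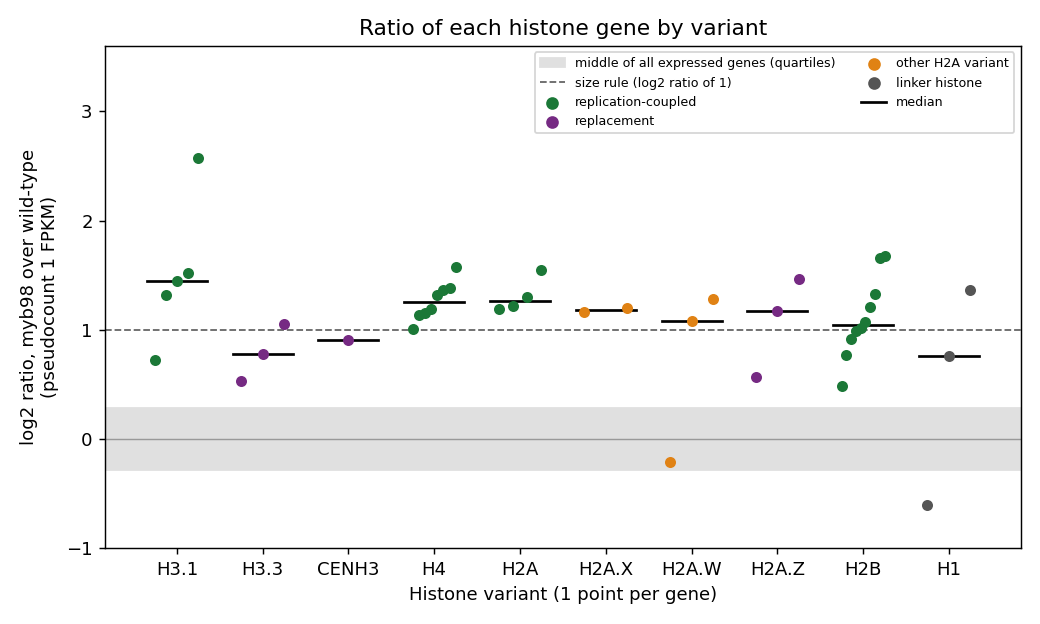
Log2 ratio of myb98 over wild-type for each expressed histone gene by variant, with medians as bars. The grey band holds the middle of all expressed genes, from -0.28 to 0.29, the dashed line is the size rule, HTR13 stands alone at 2.57, and HTA12 (-0.21) and H1.3 (-0.61) lie below 0.

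All 8 genes of H4, the histone without named variants that pairs with every H3, were past the rule in the same direction. They encode 1 identical protein of 103 residues from 8 loci and summed to 1376 FPKM in myb98 ovules and 568 FPKM in wild-type ovules, a ratio of 2.42. Their ratios were the most even of the large classes, from 2.02-fold to 3.01-fold, and 3 of the 8 were at 1 or more on the length-centred log2 scale. AT5G59970 had the highest ratio, with 178 FPKM in myb98 ovules and 59.2 FPKM in wild-type ovules. HIS4 (AT2G28740) had the lowest, with 149 FPKM in myb98 ovules and 73.6 FPKM in wild-type ovules, a log2 ratio of 1.005 that only just reached the rule. AT5G59690 was the most abundant H4 gene, with 338 FPKM in myb98 ovules and 129 FPKM in wild-type ovules. The transcripts of AT3G46320 and AT3G45930 are 97.5% identical over 393 nt, so reads may be split between them. They had 107.5 and 98.97 FPKM in myb98 ovules, against 41.0 and 44.6 FPKM in wild-type ovules. The transcripts of AT1G07820 and AT1G07660 are 91.3% identical over 551 nt, and 19.4% and 28.5% of their 50-nt windows are shared. Their reads may be split as well. They had 256 and 55.0 FPKM in myb98 ovules, against 115 and 21.4 FPKM in wild-type ovules. AT3G53730 had 193 FPKM in myb98 ovules and 84.1 FPKM in wild-type ovules.

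Among the H2A genes, canonical H2A was higher in myb98 ovules throughout, while the H2A.Z genes were divided through HTA9 alone. The 4 genes of canonical H2A were all past the rule, from 2.30-fold to 2.96-fold, and summed to 459.6 FPKM in myb98 ovules and 182 FPKM in wild-type ovules. HTA13 (AT3G20670) led them with 143 FPKM in myb98 ovules and 48.4 FPKM in wild-type ovules. HTA10 (AT1G51060), with the lowest ratio, had 148 FPKM in myb98 ovules and 64.4 FPKM in wild-type ovules. HTA1 (AT5G54640), known as RAT5 for its part in Agrobacterium transformation, had 64.3 FPKM in myb98 ovules and 25.5 FPKM in wild-type ovules. HTA2 (AT4G27230) had 104 FPKM in myb98 ovules and 44.1 FPKM in wild-type ovules. On the length-centred log2 scale 1 of these 4 was at 1 or more. Exons of HTA13 overlap those of AT3G20680 on the opposite strand, so its value is uncertain.

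The 3 expressed H2A.Z genes differed in ratio. HTA9 (AT1G52740), the most abundant, had 126 FPKM in myb98 ovules and 84.7 FPKM in wild-type ovules, 1.49-fold, and did not pass the rule. HTA11 (AT3G54560) had 52.7 FPKM in myb98 ovules and 22.8 FPKM in wild-type ovules, 2.31-fold. HTA8 (AT2G38810) had 32.5 FPKM in myb98 ovules and 11.1 FPKM in wild-type ovules, 2.92-fold, a ratio close to that of HTA13. HTA9 and HTA11 are the broadly used H2A.Z genes of the plant, and here they lay on opposite sides of the rule. HTA11 and HTA8 lay within the range of canonical H2A, 2.30-fold to 2.96-fold, so the division rests on HTA9. On the length-centred scale the median log2 ratio was 0.92 for canonical H2A and 0.92 for H2A.Z. Exons of HTA9 overlap those of AT1G52750 on the opposite strand, and strandedness is not given, so reads of the overlap cannot be assigned. Because HTA9 holds most H2A.Z transcripts, H2A.Z made up 19.8% of all H2A FPKM in myb98 ovules and 24.8% in wild-type ovules. The remaining H2A.Z gene, the divergent HTA4 (AT4G13570) was listed at 0 in both libraries.

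The H2A.X and H2A.W genes ran from 2.14-fold to 2.45-fold, apart from HTA12. The H2A.X genes HTA3 (AT1G54690) and HTA5 (AT1G08880) were at 2.36-fold and 2.28-fold. HTA3 had 48.9 FPKM in myb98 ovules and 20.7 FPKM in wild-type ovules, values that are uncertain because its exons overlap genes on the opposite strand and 41.1% of its windows are shared. HTA5 had 80.2 FPKM in myb98 ovules and 35.2 FPKM in wild-type ovules. Of the H2A.W genes, HTA6 (AT5G59870) had 175 FPKM in myb98 ovules and 71.7 FPKM in wild-type ovules, 2.45-fold, and HTA7 (AT5G27670) had 85.6 FPKM in myb98 ovules and 40.0 FPKM in wild-type ovules, 2.14-fold. The H2A.W share of H2A FPKM was 25.2% in myb98 and 25.4% in wild-type ovules.

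HTA12 (AT5G02560) is the H2A.W gene that stood apart, with 8.46 FPKM in myb98 ovules and 9.92 FPKM in wild-type ovules, a ratio of 0.854. The H2B gene HTB10 (AT5G02570) lies wholly inside its transcript region on the opposite strand, so all of the HTB10 sequence and 34.2% of the windows of HTA12 are shared. HTB10 had 1.24 FPKM in myb98 ovules and 0.185 FPKM in wild-type ovules, which the rough depth estimate puts at about 27 fragments in myb98 and about 5 fragments in wild-type ovules. The plain ratio of HTB10, 6.73, thus rests on few fragments, and how reads were divided between this pair is not given.

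**Figure D3:**
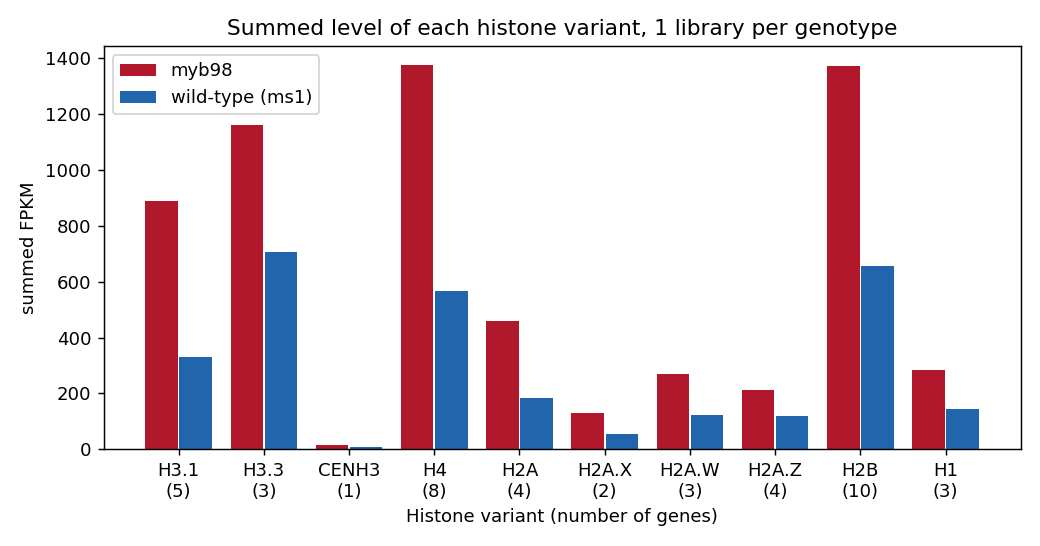
Summed FPKM of each histone variant in the myb98 library and the wild-type (ms1) library, with the number of genes in brackets. H4 stands at 1376 and 568 FPKM, H3.1 at 889 and 329.7 FPKM and H3.3 at 1162 and 707 FPKM in myb98 and wild-type ovules.

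H2B was the class with the widest spread of levels. Its 10 genes other than HTB8 summed to 1373 FPKM in myb98 ovules and 655 FPKM in wild-type ovules, a ratio of 2.10, with 6 past the rule and 4 not. HTB2 (AT5G22880), the most abundant, was among those that did not pass, with 409 FPKM in myb98 ovules and 239 FPKM in wild-type ovules, 1.71-fold. HTB4 (AT5G59910) had 346 FPKM in myb98 ovules and 164 FPKM in wild-type ovules, 2.11-fold. HTB9 (AT3G45980) had 261 FPKM in myb98 ovules and 112 FPKM in wild-type ovules, 2.32-fold. Its value is uncertain as well, since its exons overlap genes on the opposite strand and 31.4% of its windows are shared. These 3 genes supplied most of the H2B transcripts in both libraries.

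The highest H2B ratios among well-expressed genes were those of 2 genes of middle level. HTB1 (AT1G07790) had 114 FPKM in myb98 ovules and 35.04 FPKM in wild-type ovules, 3.27-fold. HTB5 (AT2G37470) had 76.3 FPKM in myb98 ovules and 23.5 FPKM in wild-type ovules, 3.24-fold. HTB11 (AT3G46030), at 140.9 FPKM in myb98 ovules and 70.3 FPKM in wild-type ovules, was just below the rule at a log2 ratio of 0.99. The genes HTB3, HTB6 and HTB7 were low, from 6.12 to 9.98 FPKM in myb98 ovules and from 3.29 to 4.10 FPKM in wild-type ovules. HTB6 (2.95-fold) and HTB7 (2.34-fold) passed, and HTB3 (1.49-fold) did not. The seed histone gene HTB8 (AT1G08170) was listed at 0 in myb98 ovules and stood at 0.0228 FPKM in wild-type ovules, about 1 fragment.

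The 3 linker histone genes differed in direction. H1.1 (AT1G06760), one of the main H1 genes, had 182 FPKM in myb98 ovules and 69.9 FPKM in wild-type ovules, 2.60-fold. H1.2 (AT2G30620), the other main gene, had 86.8 FPKM in myb98 ovules and 51.0 FPKM in wild-type ovules, 1.70-fold. H1.3 (AT2G18050, chromosome 2, plus strand, 7845923 to 7847031), known as the drought- and low-light-induced linker histone, had 15.0 FPKM in myb98 ovules and 23.4 FPKM in wild-type ovules, a ratio of 0.642. Its log2 ratio of -0.61 (-0.84 on the length-centred scale) was the lowest of all members and did not reach -1. Exons of H1.1 and of H1.2 overlap those of genes on the opposite strand, and those of H1.3 do not.

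Read by mode of deposition, 22 of the 27 replication-coupled genes were past the rule and 27 of 27 lay above 0, with a median log2 ratio of 1.22. Of the 7 expressed replacement genes, 3 were past the rule and 7 of 7 lay above 0, with a median of 0.91. The medians thus differed by 0.31, or by 0.26 on the length-centred scale, where they were 0.97 for the replication-coupled and 0.70 for the replacement genes. On that scale 10 of the 27 replication-coupled and 1 of the 7 replacement genes were at 1 or more. The summed levels gave a ratio of 2.36 for the replication-coupled genes and 1.67 for the replacement genes. The ranges overlapped widely: 6 of the 27 replication-coupled ratios lay above the highest replacement ratio, that of HTA8, and 3 lay below the replacement median. The lowest replication-coupled genes were HTB3, HTR3 and HTB2, and the lowest replacement genes were HTR5, HTA9 and HTR4. All 7 replacement log2 ratios lay within the replication-coupled range. The difference did not hold in every class. Median log2 ratios were 1.45 for H3.1 and 0.78 for H3.3, but 1.17 for H2A.Z, against 1.26 for canonical H2A and 1.05 for H2B. With 1 library per genotype the difference was not tested.

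Most transcripts of DNA replication and division had log2 ratios above 0, smaller than those of most histones. Of 19 expressed genes of S phase and replication, 18 lay above 0, 1 was past the rule and 0 were lower, with a median log2 ratio of 0.43 (0.55 on the length-centred scale). The gene past the rule was PCNA1, the sliding clamp of DNA polymerase, with 30.2 FPKM in myb98 ovules and 11.8 FPKM in wild-type ovules. PCNA2 had 44.8 FPKM in myb98 ovules and 22.2 FPKM in wild-type ovules. TSO2, a ribonucleotide reductase subunit, had 48.1 FPKM in myb98 ovules and 25.05 FPKM in wild-type ovules. The MCM2 to MCM7 helicase genes ran from 1.14-fold to 1.39-fold, all 6 of them above 1. On the length-centred scale their log2 ratios ran from 0.32 to 0.64. The median of the H3.3 genes on that scale, 0.58, was close to that of the S phase list. Of 13 expressed genes of G2 and mitosis, 11 lay above 0 and 0 passed in either direction, with a median of 0.43. The largest 3 in size were CDKB1;1 at 25.7 FPKM in myb98 and 13.8 FPKM in wild-type ovules, CDKB2;2 at 17.4 FPKM in myb98 and 9.75 FPKM in wild-type ovules, and CDKB1;2 at 15.8 FPKM in myb98 and 8.87 FPKM in wild-type ovules. Together 29 of 32 genes of these lists lay above 0, and their part in the histone result was not tested. In whole ovules, more cells in S phase and more histone RNA per cell cannot be told apart.

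As a list, the genes that handle histones did not share the direction of the histones, though some of them did. Of 29 expressed genes of histone chaperones and assembly, 10 lay above 0, 0 were called higher and 1 lower, with a median log2 ratio of -0.05. The gene called lower was INO80, a chromatin remodeller that acts on nucleosomes with H2A.Z, at 6.44 FPKM in myb98 ovules and 16.3 FPKM in wild-type ovules. Next in size were ATXR6, which monomethylates H3.1 at lysine 27, at 5.54 FPKM in myb98 ovules and 2.56 FPKM in wild-type ovules, and ATRX, a remodeller linked to H3.3, at 3.77 FPKM in myb98 ovules and 7.73 FPKM in wild-type ovules. ASF1A, ASF1B and NASP were among the 10 above 0, at 1.67-fold, 1.63-fold and 1.42-fold. These 3 genes and the complexes of the list are added here after their values were seen. The 4 genes of the HIRA complex, the H3.3 chaperone, ran from 0.593-fold to 1.03-fold. The 5 genes of SWR1, which installs H2A.Z, ran from 0.582-fold to 0.971-fold. The 3 genes of CAF-1, which delivers H3.1 at the replication fork, ran from 0.959-fold (FAS1) to 1.51-fold (MSI1). Many of these transcripts are long, and INO80 stood at -1.22, or -0.80 on the length-centred scale. On that scale the median of the list was -0.06. FAS1 moved from -0.05 to 0.15, so all 3 CAF-1 genes lay above 0, and SWC4 of SWR1 moved from -0.04 to 0.06. SSRP1, SPT16 and DDM1 also turned above 0, and NRP1 turned below it. The count of 10 above 0 and the fold ranges thus depend on transcript length.

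Among markers of the cell types of the ovule, those of synergids were lower in myb98, and few others passed the rule. The 5 egg cell markers had a median log2 ratio of 0.12, which was -0.28 on the length-centred scale, with summed levels of 258.5 FPKM in myb98 and 222 FPKM in wild-type ovules, and 1 of them, EC1.5, was past the rule at 56.8 FPKM in myb98 and 24.3 FPKM in wild-type ovules. The length-centred value of EC1.5, 0.76, was below 1. EC1.2 had 33.04 FPKM in myb98 and 23.3 FPKM in wild-type ovules, and EC1.1 had 62.7 FPKM in myb98 and 68.9 FPKM in wild-type ovules. The 5 central cell markers had a median of -0.05, with summed levels of 8.81 FPKM in myb98 and 13.5 FPKM in wild-type ovules. DME differed most, at 3.85 FPKM in myb98 and 8.61 FPKM in wild-type ovules. Its transcript is long, at 6963 nt, and its log2 ratio of -0.99 was -0.56 on the length-centred scale. The Polycomb gene MEA had 1.18 FPKM in myb98 and 0.852 FPKM in wild-type ovules, and FWA had 1.36 FPKM in myb98 and 1.67 FPKM in wild-type ovules. The 6 ovule and integument markers had a median of -0.03, with summed levels of 235 FPKM in myb98 and 230.3 FPKM in wild-type ovules. The largest ratios in size there were those of SHP1, with 29.1 FPKM in myb98 and 40.1 FPKM in wild-type ovules, and of BEL1, with 3.47 FPKM in myb98 and 4.94 FPKM in wild-type ovules. Synergid markers summed to 0.946 FPKM in myb98 ovules and 669 FPKM in wild-type ovules, and 4 of 5 were called lower. Those 4 were LURE1 genes, and MYB98 itself did not pass the rule, at a log2 ratio of -0.67. Because MYB98 is the mutated gene and LURE1.2 lies downstream of it, these markers cannot show whether synergid cells differed in number. Beside LURE1.2 the lowest were LURE1.5, at 0.261 FPKM in myb98 and 213 FPKM in wild-type ovules, and LURE1.3, at 0.211 FPKM in myb98 and 181.5 FPKM in wild-type ovules. Of the endosperm markers AGL62 alone was expressed, at 1.32 FPKM in myb98 and 0.9002 FPKM in wild-type ovules, and PHE1 was listed at 0 in both. The part of the cell makeup in the histone result was not tested.

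**Figure D4:**
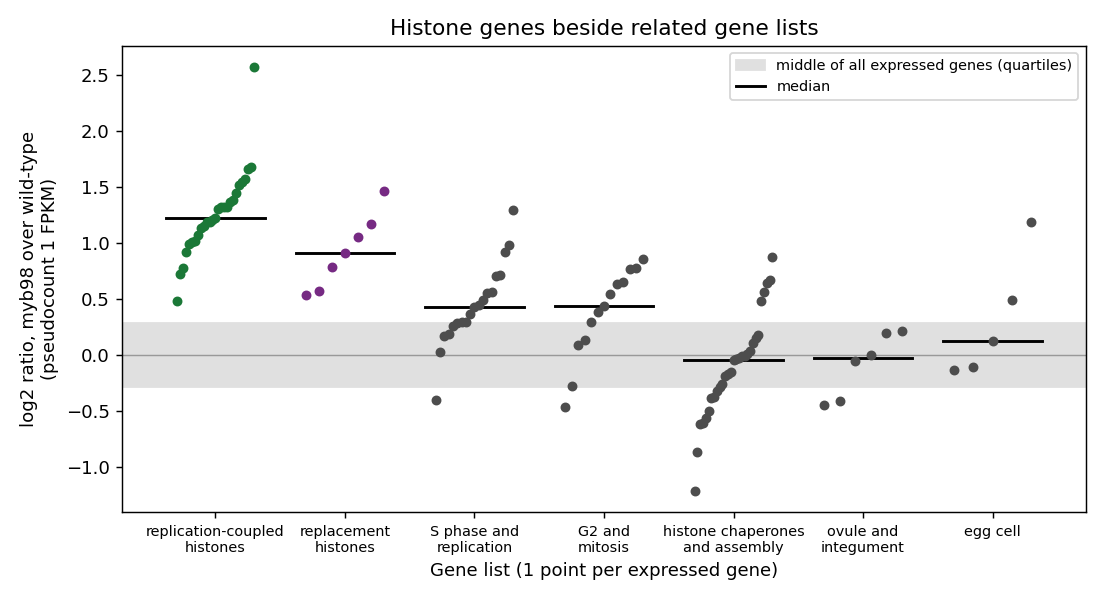
Log2 ratio of myb98 over wild-type for each expressed gene of the histone groups and the related lists, with medians as bars and the quartiles of all expressed genes in grey. The medians run from 1.22 for replication-coupled and 0.91 for replacement histones through 0.43 for S phase and 0.43 for mitosis genes to -0.05 for histone chaperones. The ratios shown are not length-centred.

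Some upstream motifs were more frequent at histone genes than at all genes. Plant histone promoters are known for an octamer, CGCGGATC, and a hexamer, ACGTCA, and S-phase genes for E2F sites. Both strands of the 250 bases before each annotated gene start were searched in RefSeq TAIR10.1, with E2F sites spelled TTTCCCGC, TTTGGCGC, TTTCGCGC or TTTGCCGC. The octamer occurred upstream of 10 of the 44 members, against 0.135% of 27443 nuclear protein-coding genes. Members were 10 of the 37 genes with it. The hexamer occurred upstream of 11 members (25%), against 7.69% of all genes. E2F sites occurred upstream of 3 members, against 1.41% of all genes. The octamer or the hexamer occurred upstream of 20 of the 44 members, so the other 24 had no exact match to either. Only exact letters were counted, and near matches, such as TGCGGATC before AT5G59970 and CACGGATC before HIS4, were left out. The letters TATAAA occurred upstream of 45.5% of members, against 47.3% of all genes.

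The motifs divided by histone class. The octamer stood before H3, H4, H2A and H1 genes and before 0 of the 11 H2B genes, while the hexamer stood before 8 of the 11 H2B genes and 3 of the 33 others. HTR9 was the member with both. Examples are shown in the direction of transcription, each ending 1 base before the annotated gene start, with octamer and hexamer matches in capitals. HTR13 and H1.3 are shown as the members with the highest and the lowest log2 ratio, HTA13 and H1.1 as the genes with the highest ratio of their class, and HTR9, AT5G59690 and HTB5 were chosen after their values were seen.
HTR13 (chr5:3269595-3269764, minus strand): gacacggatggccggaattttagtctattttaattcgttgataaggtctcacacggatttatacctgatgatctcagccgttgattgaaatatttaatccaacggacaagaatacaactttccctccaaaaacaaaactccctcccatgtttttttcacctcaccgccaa
HTR9 (chr5:3270958-3271127, minus strand): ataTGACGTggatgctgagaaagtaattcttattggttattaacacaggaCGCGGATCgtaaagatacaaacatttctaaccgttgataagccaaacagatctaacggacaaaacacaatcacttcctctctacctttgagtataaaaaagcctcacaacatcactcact
AT5G59690 (H4, chr5:24051304-24051473, plus strand): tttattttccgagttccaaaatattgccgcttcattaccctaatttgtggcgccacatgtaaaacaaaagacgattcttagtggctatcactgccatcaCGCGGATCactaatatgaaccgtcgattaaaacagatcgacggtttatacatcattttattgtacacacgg
HTA13 (chr3:7229220-7229389, plus strand): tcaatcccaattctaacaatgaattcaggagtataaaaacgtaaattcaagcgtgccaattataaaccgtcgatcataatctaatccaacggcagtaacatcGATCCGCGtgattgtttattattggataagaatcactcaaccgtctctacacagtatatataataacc
HTB5 (chr2:15736557-15736726, plus strand): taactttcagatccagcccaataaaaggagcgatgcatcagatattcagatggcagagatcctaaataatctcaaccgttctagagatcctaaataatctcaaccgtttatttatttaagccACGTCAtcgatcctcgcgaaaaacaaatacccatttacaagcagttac
H1.1 (chr1:2077768-2077937, minus strand): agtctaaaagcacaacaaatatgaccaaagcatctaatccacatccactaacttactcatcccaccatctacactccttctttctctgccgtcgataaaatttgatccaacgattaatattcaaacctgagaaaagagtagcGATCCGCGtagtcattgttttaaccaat
H1.3 (chr2:7845753-7845922, plus strand): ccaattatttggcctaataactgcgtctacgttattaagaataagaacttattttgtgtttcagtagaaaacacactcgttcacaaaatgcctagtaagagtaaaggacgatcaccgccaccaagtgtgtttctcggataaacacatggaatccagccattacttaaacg

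A motif did not go with a higher ratio in a simple way. HTR13, with the highest log2 ratio, had neither motif in its window, and HTR5, with the lowest H3 ratio, had an octamer. The window of HTR5 runs into another annotated gene, AT4G40042, and that of HTR4, without a motif, into HTR5. Windows of some other members also run into annotated genes. Expressed members with the octamer had a median log2 ratio of 1.34 and those without it 1.11. Within the replication-coupled genes the medians were 1.38 with the octamer and 1.17 without it. They were 1.101 with the hexamer and 1.302 without it. These splits mix classes, since 8 of the 10 replication-coupled H2B genes had the hexamer and 0 the octamer. With and without the octamer, the medians were 1.45 and 1.65 in H3.1, 1.35 and 1.17 in H4, and 1.37 and 1.26 in canonical H2A. With and without the hexamer, they were 1.12 and 1.45 in H3.1, and 1.101 and 1.046 in H2B. The direction thus differed between classes, on few genes each. These letters mark an exact match and not a bound site, and a window without one can hold a near match.

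**Figure D5:**
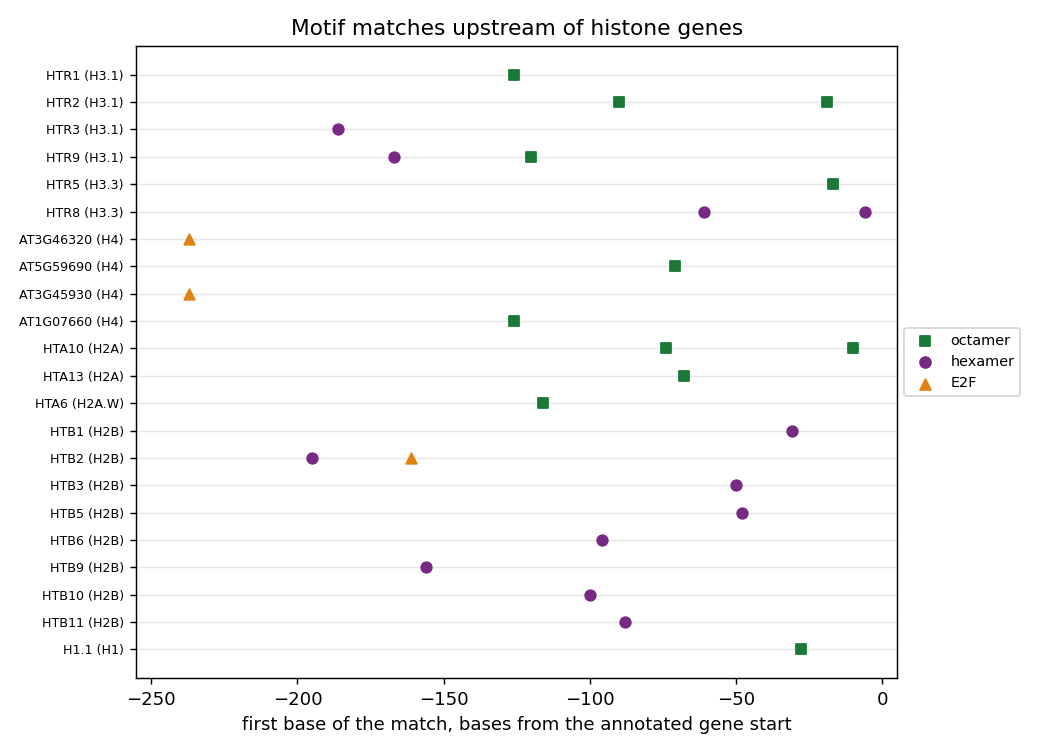
Position of octamer, hexamer and E2F matches in the 250 bases before the annotated start of each histone gene with a match, in bases from the gene start. Octamers stand before H3, H4, H2A and H1 genes, and hexamers mostly before H2B genes.

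By intron content the medians were close and the summed levels were not. The 22 expressed members with a lone exon, all of them replication-coupled, had a median log2 ratio of 1.1996, and the 20 with 2 or more exons had a median of 1.17. Of the first, 17 of 22 were past the rule and their summed level was 2.34-fold, while of the second 13 of 20 were and their summed level was 1.90-fold. The replication-coupled genes of canonical H2A carry introns and all 4 were past the rule, while the H3.3 genes have 3 to 5 exons and 1 of 3 was.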

How the data were processed

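The values are FPKM as the authors deposited them, in 1 table with 1 column per library, and the unit was read from the values. The submitters' processing notes name TopHat2 2.0.14, Cuffdiff 2.2.1 and TAIR10. Values from Cuffdiff are estimates, so a listed 0 can be a failed one. The annotation, strandedness and scaling were not given in the sources used here.

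Of 35548 identifiers, 33557 had values and 32810 of those matched RefSeq TAIR10.1, among them all 44 members. Ratios used a pseudocount of 1 FPKM, which understates changes of low genes, and folds are plain ratios of FPKM. The rule of size is no test. Length centring used 500 genes, on the longest transcript of each gene, and was checked on simulated data. Depth was estimated from values times length of genes with a lone transcript of at least 1500 nt, between 0.01 and 0.033. Transcripts were compared with BLAST 2.17.0 over at least 50% of their length and by shared 50-nt windows. Python 3.11.15, numpy 2.4.6, pandas 2.3.3 and matplotlib 3.10.9 were used.

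Members, classes and lists were chosen with earlier results of these data known. Every member is accounted for. Of each other list the 3 expressed genes with the largest log2 ratio in size, and defining markers, were to be named, and others named were added after their values were seen.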

Additional observations from a re-analysis of the deposited data

How the results depend on the processing

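The alternatives were run on the histone counts, medians, sums and shares, and reversed no direction among them. Of the other lists only length centring was run: it turned the egg cell median of 0.12 to -0.28 and the lone expressed pollen gene, ANX1, at -0.01, to 0.25. It shifted the S phase median of 0.43 to 0.55 and the synergid median of -7.24 to -7.63. The count of 30 members called higher was 1 at a log2 ratio of 2 and 13 with each gene set against genes of its transcript length. It was 32 and 27 with pseudocounts of 0.1 and 5, 28 among the 38 members with 5 FPKM in both libraries, and 28 after centring, which shifted ratios by 0.03. The replication-coupled median of 1.22 was 1.32 at a pseudocount of 0.1 and 0.97 on the length-centred scale. The replacement median of 0.91 was 0.77 at a pseudocount of 5 and 0.70 on the length-centred scale. Their difference of 0.31 ran from 0.26 to 0.39 over the alternatives. Without the 12 members that overlap or nearly match other genes, 24 of 31 expressed members were called higher. The H3.1 share of H3 was then 40.8% in myb98 and 28.1% in wild-type ovules. A near match took 95% identity, so members of lower identity that share windows, such as AT1G07820 and AT1G07660, stayed in. The causes were not tested. No paired analysis was possible because each genotype has 1 library, and for the same reason no replicate could be left out. FPKM are relative within a library.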
